A study of Mus musculus with 18 samples.

Results

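The insulin-like growth factor (IGF) system is described here through 9 genes: the ligand Igf1, the receptors Igf1r and Igf2r, and the binding proteins Igfbp2, Igfbp3, Igfbp4, Igfbp5, Igfbp6 and Igfbp7. They were chosen by name, as the genes to which the probes' accessions map, and 13 of the 55681 probes of the array belong to them. All 13 probes passed the filter on dim probes, so all 9 genes stood among the 22854 features tested, of which 14542 carry a RefSeq gene symbol. Every one of the 13 probes was well above background on all 18 arrays.

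The RNA came from explants of dorsal root ganglia, a culture that keeps sensory neurons together with Schwann cells and with the remaining ganglion cells. All cultures were of C57BL/6J embryos of day E13.5, labelled as control in treatment, and had spent 12 days on matrigel in a growth medium. They were collected just before a myelination medium was given (day 0), after 10 days in it at early myelination (day 10), and after 22 days, with abundant mature sheaths (day 22). Each day had 3 batches, which were different pools of embryos collected at different times, and 2 arrays per batch that the labels call technical. By the labels a batch number marks a batch that the days share. The main fit takes the days as unpaired, and a fit with batch number as a paired block is an alternative. No culture kept without myelination medium to day 10 or day 22 is among the samples, so the effect of the medium and of time in culture cannot be told apart. Because whole cultures were measured, more cells of a type and more RNA per cell cannot be told apart either. All 10 sensory neuron markers (such as Tubb3 and Prph) and all 10 Schwann cell markers (such as Sox10) were well above background on all 18 arrays.

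The deposited files conflict on which array belongs to which batch. The authors deposited the arrays' own files and a table of normalised values, and 12 of the 18 columns of the table hold the values of an array filed under another batch of the same day. The day of an array is the same in both, so the changes between days do not depend on the conflict, but their errors do. With the batches of the array files, the 2 arrays of a batch had a consensus correlation of -0.196 over all features, with day and slide in the model. With the batches of the value table that correlation was 0.471, so errors from the array files may be too small. Adjusted p-values are therefore given for both placements, that of the array files first (the file placement) and that of the value table second (the table placement). The words rose and fell are kept for genes under 0.05 in both with the unpaired fit.

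As background, IGF1 is a secreted growth factor that signals through the receptor tyrosine kinase IGF1R to the PI3K and Akt pathway, and in nerve it supports the survival of neurons and of Schwann cells and the formation of myelin. IGF2R, also the cation-independent mannose 6-phosphate receptor, has no kinase, clears IGF2 from the cell surface and sorts enzymes to the lysosome. The binding proteins are secreted carriers that prolong the life of IGFs, hold them in matrix or keep them from the receptor, and proteases release the bound ligand.

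The sequences upstream of the annotated starts are shown for the 3 genes that rose in both placements from day 0 to day 22 (Igf1, Igfbp5 and Igfbp7) and for Igfbp4 and Igfbp6, which moved together from array to array. They come from RefSeq on build GRCm38.p6 and run 250 bases up to the start, 5′ to 3′. All 9 genes matched an entry, and Igfbp2 matched 2. Capitals mark every match to 9 motifs. Of the general promoter elements, TATAAA was searched on the given strand only, and the GC box GGGCGG and the CCAAT box on both strands, as were all that follow. For AP-1 factors the letters were TGANTCA, for STAT factors TTCNNNGAA and for FOXO factors GTAAACA. For EGR factors they were GCGGGGGCG, which can overlap a GC box, for SOX factors ACAAAG, and for TEAD factors GGAATG.
Igf1, chr10:87860861-87861110, + strand: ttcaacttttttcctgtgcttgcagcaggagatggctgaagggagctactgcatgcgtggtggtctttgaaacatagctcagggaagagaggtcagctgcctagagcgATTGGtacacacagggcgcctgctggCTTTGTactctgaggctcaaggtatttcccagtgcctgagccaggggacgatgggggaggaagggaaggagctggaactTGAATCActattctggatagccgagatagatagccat
Igfbp5, chr1:72874866-72875115, - strand: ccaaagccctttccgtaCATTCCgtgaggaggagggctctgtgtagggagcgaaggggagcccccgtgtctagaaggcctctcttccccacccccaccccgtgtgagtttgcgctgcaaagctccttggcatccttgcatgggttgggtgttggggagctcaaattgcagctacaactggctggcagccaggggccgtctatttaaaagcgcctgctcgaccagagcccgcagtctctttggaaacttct
Igfbp7, chr5:77408046-77408295, - strand: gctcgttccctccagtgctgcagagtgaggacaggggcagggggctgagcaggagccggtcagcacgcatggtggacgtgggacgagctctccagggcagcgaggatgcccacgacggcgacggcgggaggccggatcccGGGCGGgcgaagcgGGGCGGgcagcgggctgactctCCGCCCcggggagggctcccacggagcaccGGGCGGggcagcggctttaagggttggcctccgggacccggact
Igfbp4, chr11:99040994-99041243, + strand: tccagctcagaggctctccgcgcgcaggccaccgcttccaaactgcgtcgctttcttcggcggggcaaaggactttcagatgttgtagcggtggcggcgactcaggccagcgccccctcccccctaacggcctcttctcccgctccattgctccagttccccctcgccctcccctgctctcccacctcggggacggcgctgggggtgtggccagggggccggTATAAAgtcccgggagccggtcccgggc
Igfbp6, chr15:102143936-102144185, + strand: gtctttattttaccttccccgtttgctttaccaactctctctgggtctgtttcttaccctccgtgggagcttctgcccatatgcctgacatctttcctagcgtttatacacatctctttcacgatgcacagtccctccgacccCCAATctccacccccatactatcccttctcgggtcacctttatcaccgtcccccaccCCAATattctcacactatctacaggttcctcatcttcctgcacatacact

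The 5 windows differed in makeup. Igfbp7 had a GC content of 74% and 26 CpG dinucleotides, with 4 GC boxes (GGGCGG), a motif that 32.7% of 32851 windows of this length hold. Igfbp4 had a GC content of 69.2% and 22 CpG dinucleotides, and was the only one of the 10 windows of the 9 genes with TATAAA, 28 bases before the start (7.59% of all windows hold it). Igfbp5 (58.8%, 10 CpG dinucleotides) had no match to the exact letters searched for the TATA, GC and CCAAT boxes, and 1 match to GGAATG (12.6% of windows). Variant forms of these boxes were not searched, so their absence is not shown. Igf1 (52.8%, 5 CpG dinucleotides) held CCAAT once and TGANTCA once, 37 bases before the start (33.8% and 6.75% of windows), and ACAAAG once (16.5%). Igfbp6 (49.6%, 7 CpG dinucleotides) held CCAAT 2 times. The median window had a GC content of 52.4% and 6 CpG dinucleotides. The STAT motif TTCNNNGAA (7.02% of windows) and the FOXO motif GTAAACA (3.17%) were in none of the 10 windows, which says only that these letters are not there. The genes lie on chromosomes 10 (Igf1), 7 (Igf1r), 17 (Igf2r), 11 (Igfbp3 and Igfbp4), 15 (Igfbp6), 5 (Igfbp7) and 1, where Igfbp2 and Igfbp5 are next to each other.

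Levels are log2 intensities minus the 75th percentile of the array, so a level of 0 is that of a spot brighter than 75% of the array's spots, and levels of different genes, which come from different probes, are not compared. Changes are log2 differences ± SE from limma fitted to 3 batch means per day, with Benjamini-Hochberg adjustment over the 22854 features. Each SE printed is that of the file placement. In the table placement the SE was larger for Igf1 (0.58), Igf1r (0.11), Igfbp2 (0.63), Igfbp4 (0.71), Igfbp5 (0.73), Igfbp6 (0.89) and Igfbp7 (0.34). It was smaller there for Igf2r (0.13) and Igfbp3 (0.15). The plot of levels shows each gene on each array.

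**Figure D1:**
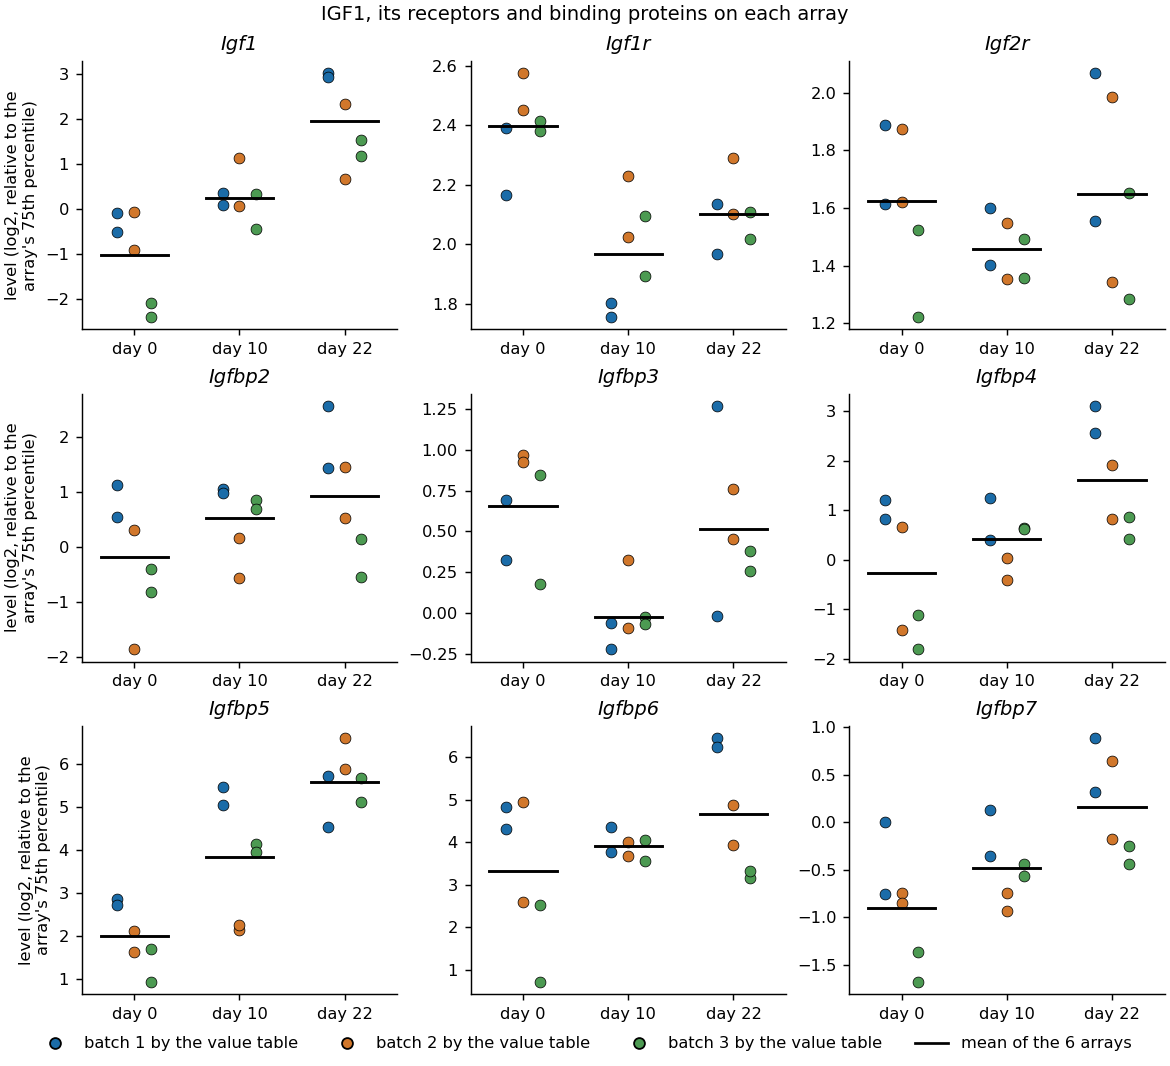
Level of each gene (log2; 0 is the array's 75th percentile, and each panel has its own axis) on the 6 arrays of each day, coloured by the batch of the value table, with the mean of the 6 arrays as a line. Igf1 and Igfbp5 had no overlap between day 0 and day 22, the Igf1r arrays were lower on day 10 and day 22 than on day 0 with a small overlap, and Igfbp6 spanned 0.71 to 4.95 on day 0 alone.

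Igf1, the ligand, rose over the course. Its level was -2.39, -0.70 and -0.07 on day 0 (lowest, median and highest of 6 arrays), -0.45, 0.21 and 1.14 on day 10, and 0.68, 1.93 and 3.01 on day 22. All 6 arrays of day 22 were above all 6 of day 0, while day 10 overlapped both. The rise from day 0 to day 22 was 2.95 ± 0.39 on the log2 scale, or 7.72-fold (adjusted p = 0.000593 and 0.00685). Each interval held a part of it, 1.26 ± 0.39 in the first (adjusted p = 0.0428 and 0.177) and 1.69 ± 0.39 in the second (adjusted p = 0.0340 and 0.177), neither of which passed in both placements. Within slide 1 the difference between day 22 and day 0 was 3.96 and within slide 2 it was 2.81 (adjusted p = 0.0480 and 0.0652), and with slide as a block 3.04.

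The 4 Igf1 probes did not give the same size. From day 0 to day 22 they differed by 2.95, 2.95, 1.88 and 1.25, all upward, and the mean of the 4 probes rose by 2.26 ± 0.37 (adjusted p = 0.00163 in the file placement). From day 0 to day 10 the differences were 1.26 and 1.23 for the first pair of probes and 0.39 and 0.23 for the others. Across the 18 arrays the other 3 probes correlated with the one shown at r = 0.999, 0.923 and 0.939, a description without a test.

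Macrophage markers moved with Igf1. All 12 macrophage markers, such as Csf1r and Aif1, rose from day 0 to day 22 in both placements, against 12.6% of all features. Their mean level relative to day 0 had medians of 0.34, 1.75 and 3.43 on days 0, 10 and 22 (ranges -1.10 to 0.82, 0.94 to 2.45 and 2.21 to 4.67). All 12 were well above background on every array of days 10 and 22, and 11 or 12 on day 0. The part of these cells in the Igf1 result was not tested.

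Of the receptors, Igf1r fell slightly and Igf2r did not pass. Igf1r stood at 2.16, 2.40 and 2.57 on day 0, 1.76, 1.96 and 2.23 on day 10, and 1.97, 2.10 and 2.29 on day 22. Of the 6 arrays of day 10, 5 lay below all of day 0, and the other, at 2.23, lay above its lowest. The fall to day 10 was -0.43 ± 0.09, or 1.35-fold (adjusted p = 0.0101 and 0.0434). On day 22 Igf1r was still at -0.29 ± 0.09 relative to day 0 (adjusted p = 0.0305 and 0.0809). With the paired block this passed in both placements (adjusted p = 0.0408 and 0.0380). Between day 10 and day 22 the difference was 0.14 ± 0.09 (adjusted p = 0.395 and 0.580). The difference at day 10 was -0.48 within slide 1 and -0.42 within slide 2, where it did not pass (adjusted p = 0.0916 and 0.205), and in the table placement it passed without 2 of the 9 batches left out in turn, day 0 batch 1 and day 22 batch 1, and not without any of the other 7 (highest adjusted p 0.127). Its range over these was -0.51 to -0.33.

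Igf2r, measured by a probe printed 10 times on each array, was at 1.22, 1.62 and 1.89 on day 0, 1.35, 1.45 and 1.60 on day 10, and 1.29, 1.60 and 2.07 on day 22. The arrays of all 3 days overlapped. Its differences were -0.16 ± 0.17, 0.19 ± 0.17 and 0.02 ± 0.17 for day 10 minus day 0, day 22 minus day 10 and day 22 minus day 0 (adjusted p = 0.506, 0.522 and 0.919, and 0.427, 0.493 and 0.902 in the table placement).

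Igfbp5, a binding protein that also attaches to extracellular matrix, had the largest rise of the 9 genes. Its level was 0.93, 1.91 and 2.85 on day 0, 2.13, 4.04 and 5.47 on day 10, and 4.54, 5.69 and 6.60 on day 22. All arrays of day 22 lay above all of day 0, and day 10 spanned the gap between them. The rise from day 0 to day 22 was 3.60 ± 0.48, or 12.1-fold (adjusted p = 0.000603 and 0.00785). The differences of the 2 intervals were 1.84 ± 0.48 (adjusted p = 0.0223 and 0.127) and 1.76 ± 0.48 (adjusted p = 0.0561 and 0.253). From day 0 to day 22 it differed by 4.19 within slide 1 and 3.54 within slide 2 (adjusted p = 0.0117 and 0.0753), and by 3.68 with slide as a block.

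On day 10 the Igfbp5 arrays fell into 3 pairs: 5.04 and 5.47, 2.13 and 2.24, and 4.14 and 3.94. These pairs are the batches of the value table, while the array files pair 5.04 with 2.13, 4.14 with 5.47 and 2.24 with 3.94. The arrays of day 10 spanned 10.1-fold, and batch 2 in that placement, lowest on day 10, was the highest on day 22 (5.88 and 6.60).

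Igfbp7, which binds IGFs weakly and also insulin, rose less. It was at -1.68, -0.80 and 0.00 on day 0, -0.94, -0.50 and 0.13 on day 10, and -0.44, 0.07 and 0.89 on day 22, so that all days overlapped. From day 0 to day 22 it rose by 1.07 ± 0.31, or 2.09-fold (adjusted p = 0.0232 and 0.0450). The intervals gave 0.41 ± 0.31 (adjusted p = 0.358 and 0.443) and 0.65 ± 0.31 (adjusted p = 0.223 and 0.358). The call was lost within slide 1 (1.64, adjusted p = 0.0819) and slide 2 (1.15, adjusted p = 0.113), and without day 0 batch 2, day 0 batch 3 or day 22 batch 1 of the array files (0.77 to 1.33 over the 9 batches left out, highest adjusted p 0.0779); in the table placement it held without 2 of the 9, day 0 batch 1 and day 22 batch 3.

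Igfbp4 and Igfbp6 had higher means on day 22 and, in the unpaired fit, passed with the array files alone. Igfbp4, whose protein is cut by the protease PAPP-A, was at -1.81, -0.23 and 1.21 on day 0, -0.41, 0.52 and 1.24 on day 10, and 0.41, 1.39 and 3.11 on day 22. Its difference between day 22 and day 0 was 1.89 ± 0.44, or 3.69-fold (adjusted p = 0.00892 and 0.0739). With batch number as a paired block it passed in both placements (adjusted p = 0.00524 and 0.0200). Igfbp6, which prefers IGF2, was at 0.71, 3.45 and 4.95 on day 0, 3.57, 3.88 and 4.37 on day 10, and 3.17, 4.40 and 6.46 on day 22. On both genes the days overlapped, and the spread of Igfbp6 within day 0 was 18.9-fold, against 1.74-fold within day 10 and 9.77-fold within day 22. Its difference between day 22 and day 0 was 1.35 ± 0.45 (adjusted p = 0.0391 and 0.273). In the file placement that call was lost without any 1 of 8 of the 9 batches, all but day 22 batch 3 (0.85 to 1.87, highest adjusted p 0.121), and with slide as a block (adjusted p = 0.0686). The differences of the intervals were 0.70 and 1.19 for Igfbp4 and 0.59 and 0.76 for Igfbp6, with adjusted p of 0.130 or above in both placements.

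In the unpaired fit Igfbp2 and Igfbp3 did not pass in both placements in any comparison. Igfbp2, a binding protein of the developing nervous system, was at -1.87, -0.05 and 1.13 on day 0, -0.56, 0.77 and 1.06 on day 10, and -0.54, 0.99 and 2.58 on day 22, overlapping throughout, and day 22 minus day 0 was 1.12 ± 0.47 (adjusted p = 0.0846 and 0.206). Its other probe differed by 1.10 in the same comparison. The value was 2.55 within slide 1 (adjusted p = 0.0117) and 0.34 within slide 2 (adjusted p = 0.777), and 0.58 to 1.42 with batches of the array files left out in turn. Igfbp3, the main carrier of IGFs in blood, had another time course, with its lowest values on day 10: 0.18, 0.77 and 0.97 on day 0, -0.22, -0.07 and 0.33 on day 10, and -0.02, 0.42 and 1.27 on day 22. A single array of day 10, at 0.33, reached into the range of day 0. The difference between day 10 and day 0 was -0.68 ± 0.24 (adjusted p = 0.0692 and 0.0245). With batch number as a paired block this difference passed in both placements (adjusted p = 0.0322 and 0.0177). From day 10 to day 22 it was 0.54 ± 0.24 (adjusted p = 0.201 and 0.114), and day 22 stood at -0.14 ± 0.24 relative to day 0 (adjusted p = 0.681 and 0.510).

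**Figure D2:**
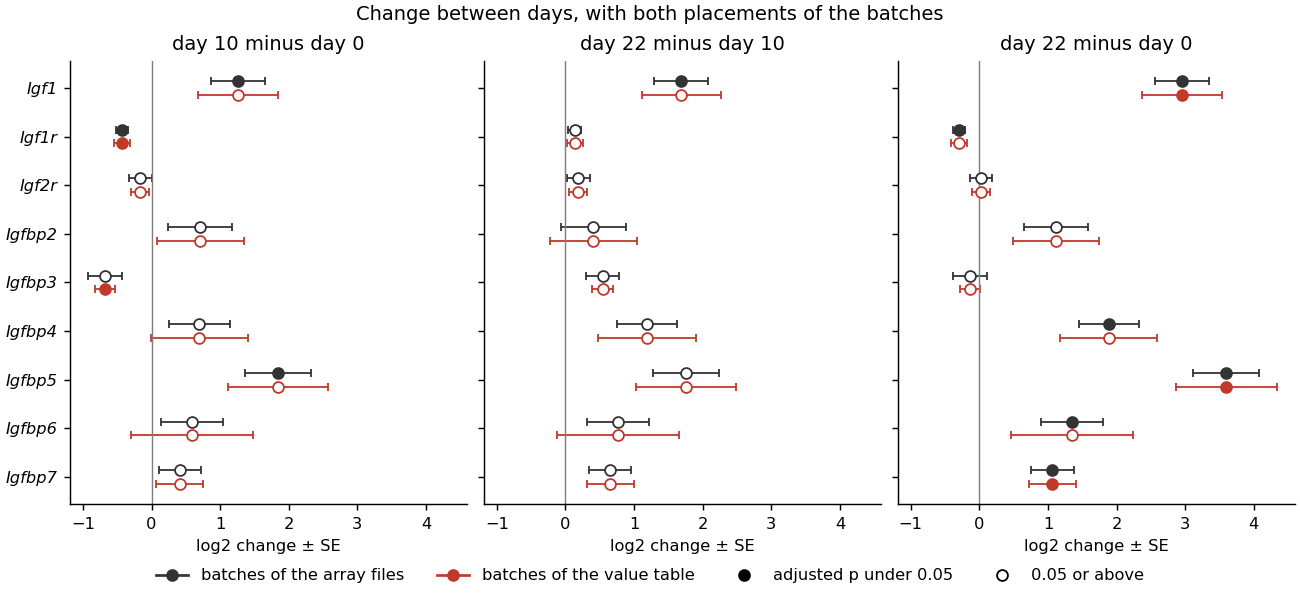
Change of each gene between days (log2 difference, with the SE of the limma fit as bars) for the 3 comparisons, with the batches of the array files in dark grey and those of the value table in red; filled points have an adjusted p under 0.05. Filled points of both colours stand at Igf1r in day 10 minus day 0 and at Igf1, Igfbp5 and Igfbp7 in day 22 minus day 0.

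Counted over the 9 genes, 0 rose and 1 (Igf1r) fell by day 10, against 5.75% of all features higher and 7.72% lower in both placements. The file placement alone gave 2 higher and 1 lower (11.4% and 17.8% of features), and the table placement 0 and 2 (5.89% and 7.94%). In limma's fit 4 genes had an unadjusted p under 0.05 in the file placement and 3 in the table placement. For unadjusted p-values the share of all features is not given, here or below, so these counts cannot show whether there was an excess.

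Between day 10 and day 22, 0 of the 9 passed in both placements, where 0.49% of features were higher and 1.46% lower. The file placement alone gave 1 higher and 0 lower (4.21% and 5.44% of features), the table placement 0 and 0 (0.525% and 1.48%), and limma gave 3 genes an unadjusted p under 0.05 in each. All 9 differences were above 0 with a median of 0.65, beside a median of -0.02 over all features.

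Between day 0 and day 22, 3 rose and 0 fell, against 12.6% of features higher and 18.6% lower in both placements, and the median difference was 1.12, beside -0.08 over all features. The file placement alone gave 5 higher and 1 lower (17.1% and 27.3% of features), and the table placement 3 and 0 (13% and 19.2%). The arrays of these days did not overlap for 2 of the 9 genes, both higher on day 22, where 9.58% of features were so and 13.3% did not overlap in the other direction. The 3 comparisons share samples, since each day enters 2 of them.

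Whether a gene changed differently in the second interval than in the first was tested directly. With limma, 0 of the 9 genes passed in either placement (1.87% of features were higher and 1.7% lower in the file placement, and 0% in the other), and 2 had an unadjusted p under 0.05 in each. They were Igf1r, whose second difference exceeded its first by 0.56 ± 0.16 (adjusted p = 0.0934 and 0.325), and Igfbp3, by 1.22 ± 0.42 (adjusted p = 0.151 and 0.149). For Igf1 and Igfbp5 the differences between intervals were 0.43 ± 0.68 and -0.08 ± 0.83 (adjusted p = 0.782 and 0.970 with the array files).

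The spread between the arrays of a batch differed from gene to gene. Over the 9 batches the 2 arrays of a batch differed on average by 1.66 for Igfbp6, 1.37 for Igfbp4, 1.23 for Igfbp5, 1.20 for Igfbp2 and 1.12 for Igf1 with the array files, and by 0.82, 0.73, 0.51, 0.77 and 0.64 with the value table. The median over all features was 0.24 and 0.20. For 7 of the 9 genes the pairs were closer with the value table, as for 70.4% of features. Igf2r (0.17 and 0.32) and Igfbp3 (0.22 and 0.38) went the other way. Igfbp7 had 0.54 and 0.39, and Igf1r, at 0.15 and 0.14, lay below the median of all features in both placements, as did Igf2r and Igfbp3 with the array files.

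**Figure D3:**
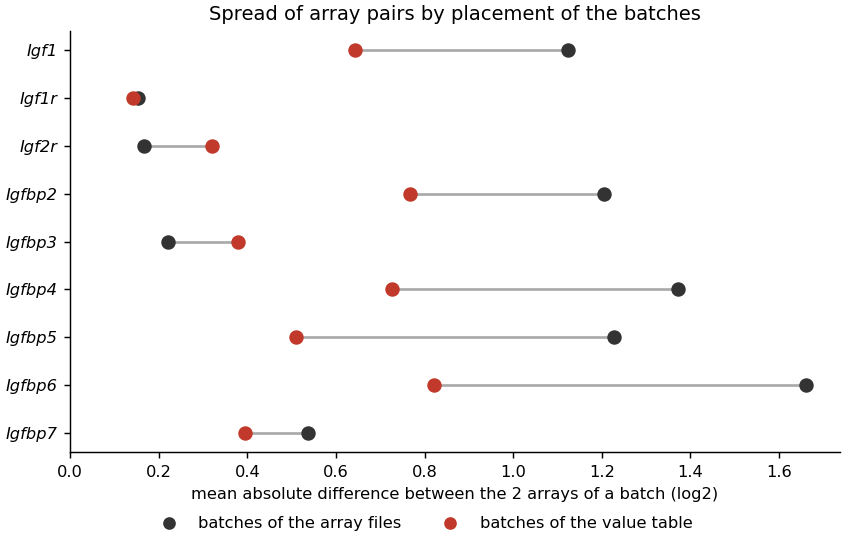
Mean absolute difference between the 2 arrays of a batch (log2), over the 9 batches of 3 days, for each gene with the batches of the array files and of the value table. The largest gap is that of Igfbp6, from 1.66 to 0.82, and Igf2r and Igfbp3 are the 2 genes with wider pairs by the value table.

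Batches within days were compared over the 18 arrays with an F test in limma. With the array files 0 of the 9 genes and 0% of features passed, and in the table placement 2 of the 9 did, Igfbp5 (adjusted p = 0.0118) and Igfbp6 (adjusted p = 0.0453), against 8.69% of features. Igfbp4 had an adjusted p of 0.0532 there. Even with the value table, the 2 arrays of batch 2 on day 0 differed by 2.17, 2.08 and 2.36 for Igfbp2, Igfbp4 and Igfbp6, and by 0.10 for Igfbp7 and 0.04 for Igfbp3.

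Within days several of the genes varied together. After the mean of each day was taken off, Igfbp6 and Igfbp4 had r = 0.91 over the 18 arrays (rho = 0.92, and r = 0.89 without the 2 arrays farthest out), and 0.481% of the other genes tested had a higher r with Igfbp6. Igfbp4 had r = 0.87 with Igfbp2 and 0.83 with Igfbp7. On single days of 6 arrays, r between Igfbp6 and Igfbp4 was 0.93, 0.59 and 0.97 on days 0, 10 and 22. Igfbp3 stood apart, with r = 0.07 with Igfbp4, as did Igfbp5 and Igf1 from each other (r = 0.08). Igf1r and Igfbp5 had r = -0.56. The neighbours Igfbp2 and Igfbp5 had r = 0.53, which 10.3% of genes exceeded with Igfbp2. These values are descriptions without a test, since arrays share batches and slides and are not independent.

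The deviations were also set beside those of cell type markers. Igf1 had r = 0.95 with the mean of the 12 macrophage markers (0.94 without the 2 arrays farthest out, and 0.99, 0.80 and 0.99 on days 0, 10 and 22). Igfbp4 and Igfbp6 had r = 0.93 and 0.92 with the mean of the 9 fibroblast markers tested of 10, such as Col1a1 and Pdgfra (0.96 and 0.87 without the 2 arrays farthest out); on days 0, 10 and 22 these were 0.95, 0.98 and 0.91 for Igfbp4 and 0.99, 0.53 and 0.93 for Igfbp6. The pairings were not particular to 1 marker list: Igfbp6 had r = 0.85 with the macrophage and 0.86 with the mural cell markers, and Igf1 had 0.76 with both the fibroblast and the mural cell markers. Igfbp4 had r = 0.93 and Igfbp7 r = 0.84 with the 4 mural cell markers tested of 8, which do not include Rgs5 and Kcnj8. With the Schwann cell markers r was -0.78 for Igfbp2, -0.74 for Igfbp4, -0.73 for Igfbp7, -0.72 for Igf2r, -0.69 for Igfbp6, -0.60 for Igf1, -0.38 for Igfbp5, -0.37 for Igfbp3 and 0.39 for Igf1r. The fibroblast mean, relative to day 0, ranged from -1.12 to 0.66 on day 0, -0.12 to 0.62 on day 10 and 0.04 to 1.06 on day 22. Of its 9 genes 2 rose and 3 fell in both placements from day 0 to day 22. These genes did not vary alike within a day: on day 0 Col1a1 ranged from 7.11 to 7.38 and Pdgfra from -3.11 to 0.72. The mural cell mean ranged from -0.86 to 0.74, 0.05 to 0.73 and 0.15 to 1.89, and 1 of its 4 genes rose in both placements. Perineurial and meningeal markers (such as Slc2a1 and Cldn1) had medians of 0.05, 1.01 and 1.64 on days 0, 10 and 22, and 2 of 8 rose and 0 fell by day 22. The 2 named did not move alike: Slc2a1 had medians of 3.41, 3.96 and 4.07, and Cldn1 of -1.56, -1.97 and -2.33. Of 7 endothelial markers (such as Pecam1) 0 rose and 2 fell, and all 9 tested cell cycle genes (such as Mki67) fell. Of 10 sensory neuron markers 0 rose and 1 fell, and of 10 Schwann cell markers 1 rose and 2 fell. Beside these counts, 12.6% of all features rose and 18.6% fell from day 0 to day 22 in both placements. The part of all these cells in the levels of these binding proteins was not tested.

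**Figure D4:**
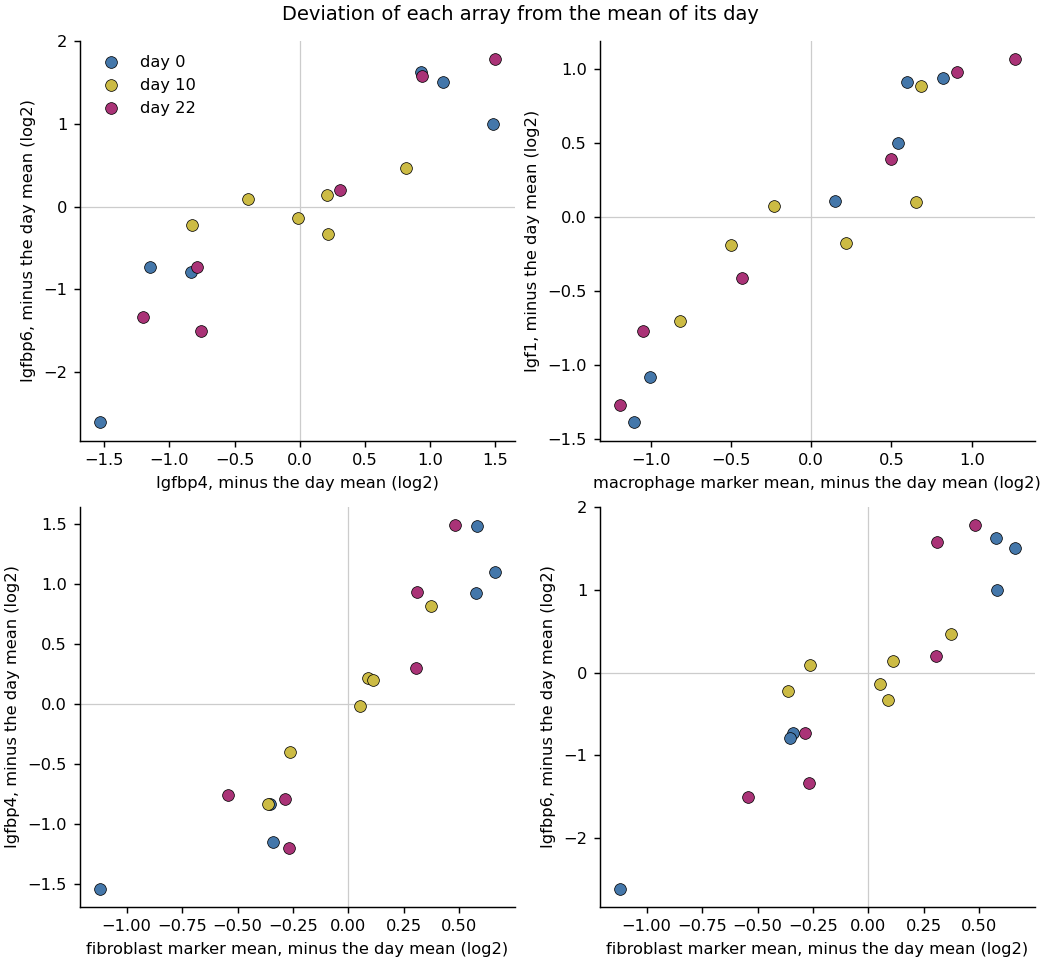
Deviation of each of the 18 arrays from the mean of its day (log2), for Igfbp6 against Igfbp4, for Igf1 against the mean of the macrophage markers, and for Igfbp4 and Igfbp6 against the mean of the fibroblast markers, coloured by day. The points rise together in all 4 panels (r = 0.91, 0.95, 0.93 and 0.92), and the day 10 arrays span the least in Igfbp6.

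The genes most like each of the 4 members with the widest range of day means were found by the Pearson correlation of the 9 batch and day means of the array files, again a description. Igf1 was most like 4930486L24Rik, Btk and Slc15a3 (r = 0.997, 0.996 and 0.995). The first of these was well above background on only 2 of 6 arrays of day 0 and 5 of 6 of day 10. Btk is a kinase of B cells and myeloid cells, and Slc15a3 a lysosomal peptide transporter. Igfbp5 was most like Ak1, Nxph3 and Tm4sf1 (r = 0.986, 0.985 and 0.984), of which Nxph3 is a neurexin ligand. Igfbp4 was most like Cd80, Bmper and Qsox1 (r = 0.992, 0.983 and 0.982), of which Bmper is a regulator of bone morphogenetic proteins. Igfbp6 was most like Smoc2, a matrix protein, Bdh2 and Fgd6 (r = 0.982, 0.973 and 0.972). Their changes between days follow from this choice and are not tested. In the table placement these correlations were 0.977, 0.992 and 0.985 for Igf1, and 0.821 to 0.990 for the other 3 genes.

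The other genes of the pathway were taken from 8 lists of 93 genes, of which 86 passed the filter; Igfbp1, Igfals, Pappa2 and Stc1 are among the 7 that did not. With both placements 4 of the 86 rose and 6 fell by day 10, 0 and 0 did between day 10 and day 22, and 16 and 11 did over the whole course. The shares of all features were 5.75% and 7.72%, 0.49% and 1.46%, and 12.6% and 18.6% in the same order. From day 10 to day 22, 27 and 18 of the 86 had an unadjusted p under 0.05 in limma's fit with the array files and the value table. The share of all features under that limit is not given, so these counts cannot show whether there was an excess. Median differences were -0.02, 0.07 and 0.07, beside -0.06, -0.02 and -0.08 over all features.

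**Figure D5:**
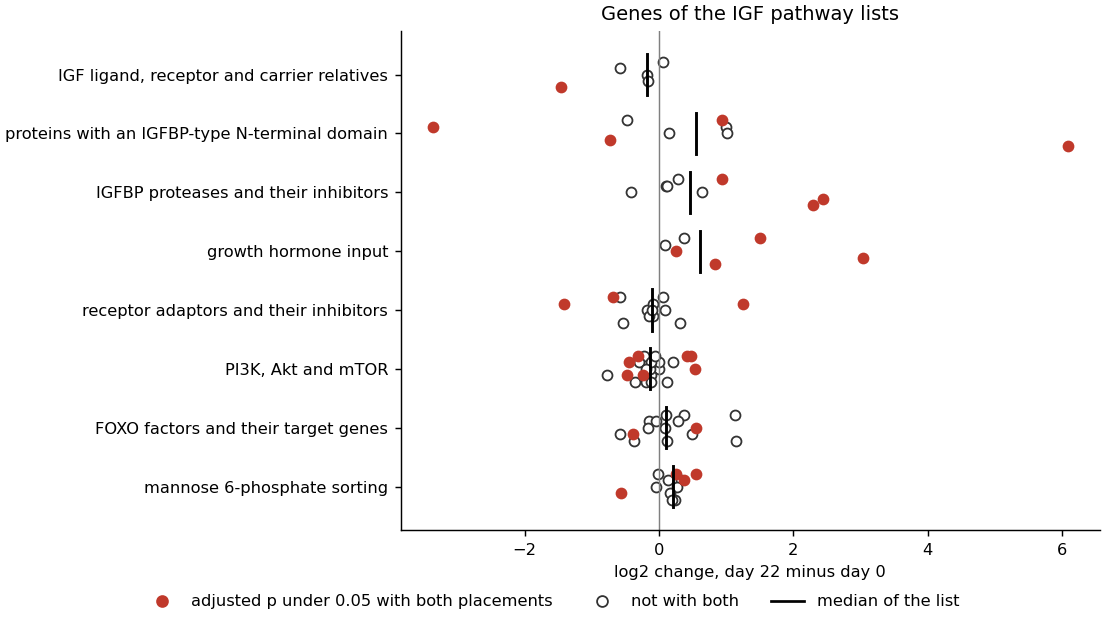
Change from day 0 to day 22 (log2 difference) of each tested gene of the 8 pathway lists, with the median of each list as a line; red points had an adjusted p under 0.05 in both placements. The highest point is Esm1 at 6.09 and the lowest is Igfbpl1, seen well above background by only 2 arrays on day 22, and 4 of the 6 genes of growth hormone input are red and above 0.

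Growth hormone acts through JAK2 and STAT5 to drive Igf1 in liver, and its feedback inhibitors are STAT5 targets. Of this list 4 of 6 genes rose in both placements over the whole course and 2 by day 10, against 12.6% and 5.75% of all features. In the table placement with the paired block 3 of the 4 still passed, and Jak2 (0.26 ± 0.07) had an adjusted p of 0.0530. Socs2, a feedback inhibitor, was at -2.41, -2.18 and -1.41 on day 0, -0.17, 0.40 and 0.73 on day 10, and 0.71, 1.01 and 1.42 on day 22. The arrays of day 0 lay below all others. Its rise was 2.31 ± 0.18 to day 10 and 3.04 ± 0.18 to day 22 (adjusted p = 0.000247 and 1.7e-05, and 0.00341 and 0.000264 in the table placement). Cish, its relative, rose by 1.47 ± 0.12 and 1.50 ± 0.12 (adjusted p = 0.000283 and 5.35e-05, and 0.00321 and 0.000644 in the table placement). Stat5a rose by 0.84 ± 0.10 to day 22 (adjusted p = 0.000427 and 0.00375). Ghr, the growth hormone receptor, differed by 0.08 ± 0.10 between day 22 and day 0 (adjusted p = 0.526 and 0.662). Stat5b differed by 0.37 ± 0.12 (adjusted p = 0.0320 and 0.178), so neither passed in both placements. Whether growth hormone acted on these cultures was not tested.

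Among IGFBP proteases and their inhibitors, 3 of 8 tested genes rose from day 0 to day 22 and 0 fell in both placements, against 12.6% and 18.6% of all features. Those 3 were the complement proteases C1ra (2.45 ± 0.19, 5.46-fold) and C1s1 (2.30 ± 0.23, 4.91-fold), of which C1s is known to cut IGFBP5, and Htra1 (0.93 ± 0.07), a secreted serine protease (adjusted p = 4.89e-05, 0.000167 and 5.07e-05, and 0.00176, 0.00584 and 0.00632 in the table placement). C1ra had also risen by day 10, by 1.60 ± 0.19 (adjusted p = 0.00106 and 0.0241). Pappa, which cuts IGFBP4, differed by 0.28, -0.16 and 0.12 in day 10 minus day 0, day 22 minus day 10 and day 22 minus day 0, and did not pass.

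Proteins that share the IGFBP-type amino-terminal domain without being classical carriers went both ways, 2 of 8 up (Esm1 and Htra1, which is in both lists) and 2 down from day 0 to day 22, against 12.6% and 18.6% of all features. Esm1 (endocan, a proteoglycan) was at -7.24, -3.93 and -1.51 on day 0 and at 1.59, 1.92 and 2.50 on day 22, a rise of 6.09 ± 0.48 (adjusted p = 5.15e-05 and 0.00467), and 5 of the 6 day 0 arrays were well above background. Igfbpl1 fell (adjusted p = 0.000386 and 0.0135), from a median of -2.94 on day 0, but only 2 of the 6 arrays of day 22 were well above background, so the size of its fall is not given.

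Of the IGF relatives, 1 of 5 passed in both placements from day 0 to day 22: Insrr, the orphan insulin receptor-related receptor, fell by 1.10 ± 0.29 to day 10 and by 1.46 ± 0.29 to day 22 (adjusted p = 0.0224 and 0.0039, and 0.0236 and 0.00306 in the table placement), with 4 of 6 arrays of day 22 well above background. Insr, the insulin receptor, differed by -0.36 ± 0.08 between day 10 and day 0 (adjusted p = 0.0134 and 0.111). Igf2, the other ligand, was at -0.93, 0.75 and 1.99 on day 0, -0.04, 0.46 and 1.01 on day 10, and -1.49, -0.44 and 2.38 on day 22, overlapping throughout. Its difference between day 22 and day 0 was -0.58 ± 0.45 (adjusted p = 0.336 and 0.635).

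Downstream of the receptors, 1 adaptor or inhibitor of 13 rose and 2 fell from day 0 to day 22 in both placements, against 12.6% and 18.6% of all features. Grb10, an adaptor that restrains the IGF1 and insulin receptors, fell by 0.97 ± 0.18 to day 10 and by 1.42 ± 0.18 to day 22 (adjusted p = 0.00534 and 0.000445, and 0.0413 and 0.00453 in the table placement, where the paired block gave 0.0563 for the fall to day 10). Gab1, a docking protein, fell by 0.69 ± 0.14, and Socs3, an inhibitor of cytokine receptors, rose by 1.25 ± 0.25 over the whole course (adjusted p = 0.00459 and 0.00431, and 0.0313 and 0.0311). The receptor substrates Irs1 and Irs2 differed by -0.53 ± 0.14 and -0.58 ± 0.19 between day 22 and day 0 (adjusted p = 0.0174 and 0.0381, and 0.0551 and 0.0634 in the table placement, where Irs2 had 0.0222 with the paired block).

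In the PI3K, Akt and mTOR list 3 of 22 genes rose and 4 fell over the whole course, and 0 and 3 did by day 10, close to the shares of all features over the whole course (12.6% and 18.6%) and beside 5.75% and 7.72% by day 10. With the paired block in the table placement, 1 of those that rose and 1 of those that fell over the whole course no longer passed, nor did 1 of the 3 that fell by day 10. The kinase subunit Pik3cb rose by 0.48 ± 0.10 to day 22 (adjusted p = 0.00659 and 0.0140). Eif4ebp1, a repressor of translation, and Tsc2, a brake on mTOR, fell by 1.17 ± 0.22 and 0.45 ± 0.11 to day 10 (adjusted p = 0.00545 and 0.0194, and 0.0441 and 0.0261). Of 15 FOXO factors and targets, 1 rose and 1 fell to day 22, and Foxo1 fell by 0.61 ± 0.12 to day 10 (adjusted p = 0.00661 and 0.0353). Of 12 genes of mannose 6-phosphate sorting, the process that Igf2r serves, 3 rose and 1 fell to day 22, and for both lists the shares of all features were 12.6% and 18.6%. M6pr, the other mannose 6-phosphate receptor, rose by 0.55 ± 0.07, Nagpa rose by 0.37 ± 0.09, and Gnptab, which starts the tag, fell by 0.56 ± 0.09 (adjusted p = 0.000526, 0.0108 and 0.0014, and 0.0021, 0.0153 and 0.0159).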

How the data were processed

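Intensity per spot was deposited by the authors in 18 array files, extracted with Agilent Feature Extraction 10.7.1.1 per the file headers (10.7.1 per the submitters' processing notes). Each array held 62976 spots, 3671 of them controls, and 54.8 to 61.5% of the others were well above background; precision is limited by how few arrays there are. The flags of 0 and 1 are given for each spot, and the slide comes from the file headers. A second deposited file, the authors' value table, holds normalised intensity on a linear scale (median 33.7 in every column), and no source used here gives its steps.

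Levels are log2 of the deposited background-subtracted intensity relative to each array's 75th percentile (584 to 747; control spots left out), without outlier spots (93 to 181 per array). A probe was kept if some day had it well above background on all 6 arrays, 30431 of 55681, and 68 single values of left-out spots were filled in, 0 of them for the 9 genes. Accessions were matched to RefSeq symbols of assembly GRCm38.p6 (26582 probes); no array coordinates were used. The probe with the highest mean stood for a gene. Limma 3.58.1 (lmFit and eBayes, R 4.3.3, data.table version 1.17.8) was fitted to 9 batch and day means. The p-values measure the spread between batches as each placement gives them. That is the spread between pools of embryos only where the placement is right. Figures were drawn with Python 3.11.15 and matplotlib 3.10.9.

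Each column of that file matched a single array (Spearman correlation of 0.999 or above, and at most 0.975 with any other). Labels say that a number marks a shared batch; deviations of same-numbered batches had correlations of -0.131 to 0.373, with 6 of 9 over 0.1, and of -0.0846 to 0.458, with 8 of 9 over 0.1, by the value table. The fit was tested on simulated data. Named genes follow a rule: all 9 members, up to 3 genes per pathway list and comparison with the largest change past the threshold, 5 fixed genes, 3 most alike genes for each of 4 members, and the first 2 markers of a list; some genes that the rule names are not reported here. The 9 genes and all lists were chosen with earlier results of these data known. Normexp, an alternative, used median in place of mean spot signals, which the files do not hold. Other alternatives were quantile normalisation, the authors' values, other filters, the mean of probes, single technical arrays, slides, the replicate block and leaving out batches; 3 of them were added after seeing the data.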

Additional observations from a re-analysis of the deposited data

Results flagged for a closer look

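In 1 of 27 sets of 6 arrays (9 genes on 3 days) a single array stood far from the others. It was the Igfbp3 level on day 10, where the highest array was at 0.33 and the others between -0.22 and -0.02, so that its gap to the next was 0.638 of the whole range, above Dixon's critical value. Chance flags about 1 in 20 such sets. By the array files it is the first array of batch 3 and by the value table the second of batch 2, whose other array was at -0.09.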

How the results depend on the processing

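Of the 9 genes' differences none that passed changed sign under the alternatives run, and 151 single values lost a call while 23 gained one. Of the genes that passed with both placements, Igf1 and Igfbp5 passed from day 0 to day 22 under 33 of 34 settings (2.26 to 3.96 and 3.26 to 4.19), all but the arrays of slide 2, Igfbp7 under 21 (0.75 to 1.64), and Igf1r to day 10 under 24 (-0.53 to -0.33). Counts of genes passing, from 3 (day 10 minus day 0), 1 (day 22 minus day 10) and 6 (day 22 minus day 0), moved as follows. In the table placement they were 0 and 3 in the last 2 comparisons, also when the authors' values were used. With the first technical arrays alone they were 0, 0 and 2, and with slide 2 alone 0, 0 and 0. In day 22 minus day 10 the count was 0 with no filter, with the second technical arrays, within slide 1 and with slide as a block by the value table, 2 with normexp and 4 with slide as a block by the array files, where 2 genes also differed between intervals. With batches left out in turn, over both placements, counts were 0 to 4, 0 to 3 and 2 to 5. Batches within days differed for 0 genes, and for 2 by the value table. With the replicate block in a paired fit the counts were 4, 1 and 6 with the array files and 2, 0 and 5 with the value table. In the latter, Igf1, Igfbp5, Igfbp7 and Igf1r kept the calls given with both placements. Igfbp3 to day 10, and Igfbp4 and Igf1r to day 22, passed in the paired fit with either placement.

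Of the pathway lists, 27, 11 and 43 genes passed in the 3 comparisons. By the value table these were 10, 0 and 27, also with the replicate block, and 10 and 1 in the first 2 with the authors' values. No filter gave 17 and 2 there, first technical arrays 2, 0 and 19, second ones 9, 0 and 20, slide 1 6, 0 and 8, and slide 2 2, 0 and 9. Slide as a block gave 21 in day 22 minus day 10, and in the table placement 17 and 4 in the first 2. Batches left out gave 2 to 28, 0 to 15 and 19 to 39. Within a slide fewer arrays enter; the cause of the other shifts was not tested. The number of arrays limits small changes.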
